A study of Mus musculus with 109 samples.

Results

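The libraries described here hold RNA of microglia from Il10ra mutant mice, 5 taken 48 h after an injection of lipopolysaccharide (LPS) and 9 taken without LPS. They were chosen by their titles in the table of Il10ra floxed controls and mutants, and are 14 of the 89 RNA libraries of a series that also holds 20 ATAC-seq samples. The mutants carried floxed Il10ra on both chromosomes and the inducible recombinase CreER expressed from Cx3cr1 (genotype CX3CR1-CreER:IL10Rafl/fl). LPS, a component of the outer membrane of Gram-negative bacteria, was given at 2.5 mg/kg into the peritoneal cavity, so the challenge was given outside the brain. Microglia were enriched from homogenised brain, in the series by flow cytometry on CD45 and CD11b, and sequenced as 3' tags by MARS-seq. For strain of the mutants, age, sex and the induction of CreER, nothing is stated in the labels. The comparison groups were IL10Rafl/fl mice without Cre at 48 h (6 libraries) and without LPS (6 libraries), the same mutants at 6 h (7 libraries) and 24 h (5 libraries), and untreated IL10Rafl/fl:TNFfl/fl mice without Cre (6 libraries). All these groups share the floxed Il10ra alleles. CreER stands in the Cx3cr1 locus in this type of allele, so Cx3cr1 itself is no clean readout in the mutants. The labels do not say that each library is 1 animal, so p-values measure the spread between libraries.

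Microglia are the resident macrophages of the brain. They sense LPS and the cytokines it raises in the blood through Toll-like and cytokine receptors, and answer through NF-kB, which drives cytokines and chemokines, and through interferons, which act through STAT proteins. Interleukin 10 is the main brake on this answer: its receptor, of which Il10ra encodes the ligand-binding chain, activates JAK1, TYK2 and STAT3, and STAT3 limits the transcription of inflammatory genes. In resting microglia TGF-beta signalling keeps up a set of homeostatic genes such as P2ry12 and Tmem119. The question the comparison addresses is how microglia without this receptor stand 2 days after LPS.

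Libraries 1, 2 and 3 at 48 h came from the third LPS experiment named in the labels, together with untreated libraries 4, 5 and 6 and with all 6 controls at 48 h. Libraries 4 and 5 at 48 h came from another experiment, called AS_DKO_LPS_2ndexp in the labels, which holds no untreated Il10ra mutant. In the fit an additive term for the experiment absorbs these 2 libraries, so the fold changes below rest on libraries 1 to 3. Libraries 4 and 5 add only to the estimate of the spread and are tested by themselves further on. Recovered reads ran from 1056780 to 1875460 per library at 48 h and from 558878 to 1395977 without LPS. Mitochondrial genes made up 1.15 to 1.70% of reads at 48 h and 0.633 to 1.096% without LPS, without overlap. Whether this share has a part in the results was not tested.

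All 8 microglial markers were lower at 48 h, and their summed level was 8951 to 14658 normalised reads against 29910 to 33321 without LPS. In each library at 48 h they exceeded the sum of every other cell type list. Of the 11 neutrophil markers listed in the data, 9 were tested and 4 rose, S100a8, S100a9, Mmp8 and Mmp9. The summed level of all 11 was 782, 28.3, 1310, 56.8 and 343 normalised reads in libraries 1 to 5, against 1.06 to 551 without LPS. Libraries 1 and 3 were highest, and the other three lay within the untreated range. Ly6g, a defining neutrophil marker, has no entry in the table. Of 8 monocyte markers tested 4 rose (Ly6c2, Plac8, Ms4a4c and Fn1) and 1 fell, Ccr2, the chemokine receptor that defines these cells, from a median of 7.39 to at most 2.04 normalised reads. The summed level of all 10 was 43.8 to 208 at 48 h, 15.8 to 41.9 without LPS and 168 to 283 in controls at 48 h. Of 6 border macrophage markers tested 0 rose and 1 fell, Mrc1. The sum of all 8 with an entry, 620.4 to 1450, spanned the untreated 757 to 1013. Of the lymphocyte, astrocyte, oligodendrocyte, endothelial and erythroid lists only 1, 3, 5, 2 and 4 members were tested. In each list 0 rose, while 0, 1, 2, 1 and 0 fell. Of 10 lymphocyte markers listed 3 had an entry, and the erythroid members tested had an uncalled median of log2 2.63. Of 3 neuronal markers tested 1 rose, Meg3, and the summed level of all 6 with an entry was 19.3 to 63 against 3.84 to 24. The part of other cells in the results was not tested.

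Library 1 at 48 h stood apart from the others. It held the lowest value of the 5 for 17 of 19 NF-kB genes, 15 of 19 costimulation and activation receptors, 13 of 17 chemokines and 11 of 15 cytokines. For the 24 homeostatic genes it was lowest for 2, while library 2 was lowest for 16. The median cytokine gene of library 1 lay 0.94 above the untreated mean on the log2 scale, against 2.58 to 2.89 in libraries 2 to 5. Interferon-inducible GTPases did not show this split, with medians of 1.82 to 1.95 in all 5. Without library 1 the comparison with untreated mutants called 3870 genes in place of 4116. For Marco, Acod1, Ch25h, Tnf, Il12b and Ccl3 the log2 changes without it are given beside the main values below. Library 1 was the lowest at 48 h for all 6, so their changes had to be larger without it. Genes with library 1 highest, such as Il1r2, Lrg1 and Spp1, are not given this way.

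**Figure D1:**
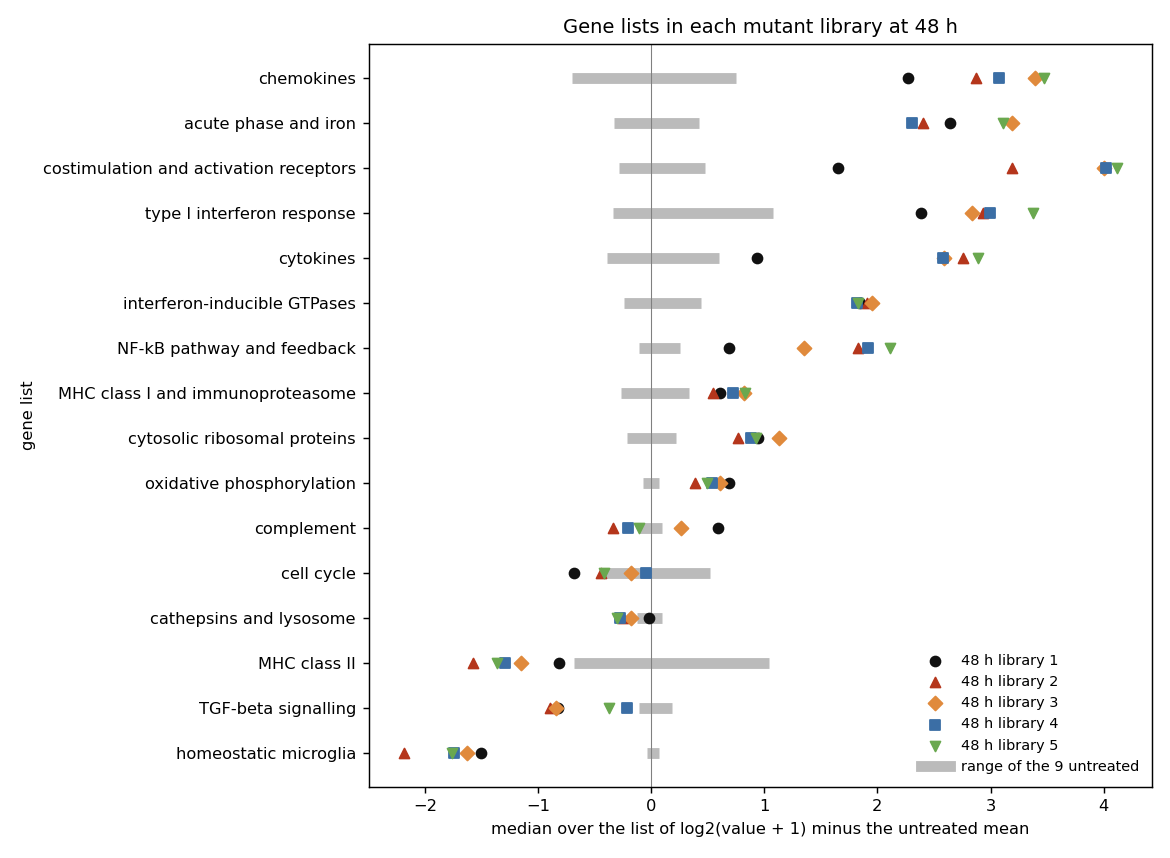
Each symbol is 1 mutant library at 48 h, placed on the horizontal axis at the median over a gene list of log2(value + 1) minus the mean of the 9 untreated libraries, with 1 row per list. Grey bars span the 9 untreated libraries. Library 1 sits at 0.94 for cytokines, where the other four lie between 2.58 and 2.89, and all 5 sit between 1.82 and 1.95 for interferon-inducible GTPases.

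Il10ra, the targeted gene, was listed at 62.1, 32.6, 53.7, 48.8 and 40.9 normalised reads in libraries 1 to 5, and at a lowest, median and highest of 19, 50.9 and 123.6 in untreated mutants. These values overlapped, and LPS gave no called change (log2 -0.31 ± 0.35, adjusted p = 0.528). All 5 lay below each control at 48 h, which averaged 548 ± 85.8 (SD, n = 6). Which exons were floxed is not stated in the labels, so the 3' tags need not lie within the deleted stretch.

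At 48 h 2048 genes were higher and 2068 lower than in untreated mutants by limma at an adjusted p under 0.05, that is 17.7% and 17.9% of the 11555 genes tested, and 35.6% in all. Of these, 1189 rose and 1386 fell by at least 1 on the log2 scale, and 73 rose and 17 fell by at least 4. In 1451 genes (12.6%) all 5 libraries at 48 h lay above all 9 untreated ones, and in 1508 (13.1%) all 5 lay below. Within the third LPS experiment alone, 3 against 3 libraries, 2324 genes were higher and 2427 lower. The counts were nearly even in both directions, but the largest rises exceeded the largest falls. Counts of rises and falls in the gene lists are to be set against the 17.7% and 17.9% of all genes. Fold changes are of log2(value + 1) and understate changes of genes that are low in 1 group. In such sorted bulk samples fewer cells of a type and less RNA per cell cannot be told apart.

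The 12 largest rises without overlap ran from log2 8.29 for Marco to 6.08 for Ehd1. Marco, a scavenger receptor of macrophages that binds bacteria, stood at 179, 3722, 2383, 1658 and 1428 normalised reads in libraries 1 to 5, against a lowest, median and highest of 0, 1.92 and 9.15 without LPS. The groups did not overlap, and library 1 was the lowest at 48 h (log2 8.29 ± 0.90, adjusted p = 2.99e-10, and 9.63 without library 1). Msr1, a related scavenger receptor, stood at 191, 307, 450.0, 233 and 233 normalised reads in libraries 1 to 5, against a lowest, median and highest of 0, 3.81 and 9.15 without LPS, again without overlap and with library 3 highest (log2 6.67 ± 0.51, adjusted p = 2.28e-14). Trem1, which amplifies Toll-like receptor signals, stood at 178, 106.8, 237, 100.3 and 172 normalised reads in libraries 1 to 5 (log2 6.66 ± 0.52, adjusted p = 3.17e-14). All 5 exceeded its highest untreated value of 6.68.

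Acod1 encodes the enzyme that makes itaconate, a metabolite of activated macrophages. It stood at 47.9, 998, 424, 879 and 959 normalised reads in libraries 1 to 5, against a lowest, median and highest of 0, 0.807 and 4.27 without LPS. All 5 lay above every untreated library, with library 1 far below the other four (log2 7.31 ± 0.88, adjusted p = 3.91e-09, and 8.56 without library 1). Ch25h, which makes 25-hydroxycholesterol, also had library 1 far below the others, with 86.6, 1845, 750.0, 1495 and 1883 normalised reads against at most 16 without LPS (log2 6.68 ± 0.84, adjusted p = 1.12e-08, and 7.93 without library 1). Il1r2, the decoy receptor for interleukin 1, ran the other way among libraries, with libraries 1 and 3 highest, at 887, 186, 709.9, 237 and 245 normalised reads against at most 11.4 (log2 7.30 ± 0.69, adjusted p = 1.04e-11).

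Ccl5, a chemokine for T cells and monocytes, stood at 986, 2788, 3262, 3659 and 4009 normalised reads in libraries 1 to 5, against a lowest, median and highest of 5.74, 35.8 and 105 without LPS (log2 6.83 ± 0.46, adjusted p = 4.69e-16). Saa3 and Lcn2, acute phase proteins that bind lipids and bacterial iron carriers, rose to 1704 to 5276 and 343 to 1314 normalised reads from medians of 19.2 and 25.8 (log2 6.64 ± 0.69, adjusted p = 1.05e-10, and log2 6.42 ± 0.84, adjusted p = 2.76e-08). Their 2 groups did not overlap either. The remaining genes among the 12 largest rises were the kinase Map3k6 (log2 6.49 ± 0.62, adjusted p = 1.05e-11), the lipid receptor Gpr18 (log2 6.11 ± 0.66, adjusted p = 2.53e-10) and the endosomal recycling protein Ehd1 (log2 6.08 ± 0.44, adjusted p = 6.93e-15), also without overlap.

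**Figure D2:**
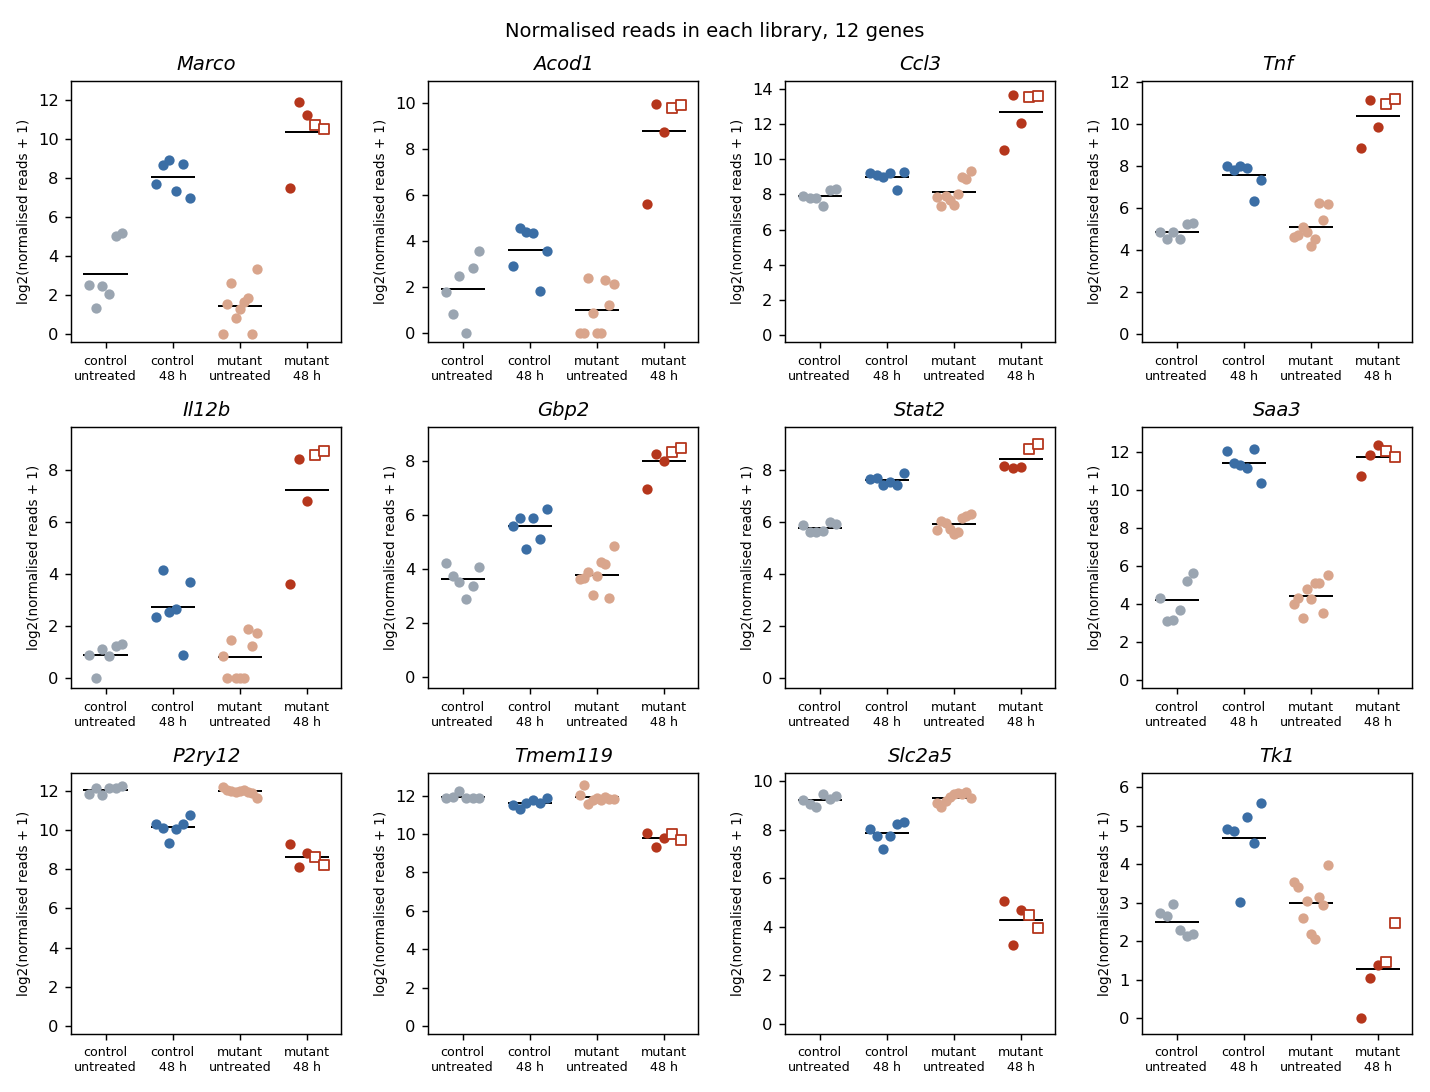
Points are libraries, lines are group means, and the vertical axis of each panel is log2(normalised reads + 1) of 1 gene, in untreated controls, controls at 48 h, untreated mutants and mutants at 48 h. Open squares are libraries 4 and 5 of the other experiment. Mutant library 1 is the lowest of its group for Acod1, Ccl3, Tnf and Il12b. Tk1 is above the range of untreated controls in every control at 48 h, and no mutant at 48 h is above the range of untreated mutants.

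Of 15 cytokine genes tested 10 rose and 2 fell (Ebi3 and Il15), with a median of 2.37 on the log2 scale where the median of all genes was -0.00861. Tnf stood at 461, 2255, 927, 1948 and 2333 normalised reads in libraries 1 to 5, against a lowest, median and highest of 17.2, 28.2 and 74.7 without LPS. The groups did not overlap, and libraries 1 and 3 were the lowest at 48 h (log2 5.02 ± 0.51, adjusted p = 5.24e-11, and 5.57 without library 1). Il12b, the shared subunit of interleukins 12 and 23, stood at 11.2, 338, 109.1, 372 and 417 normalised reads in libraries 1 to 5, against a lowest, median and highest of 0, 0.761 and 2.62 without LPS (log2 5.85 ± 0.66, adjusted p = 8.93e-10, and 7.18 without library 1). Library 1 was far below the other four here but still above every untreated library. Osm, which encodes oncostatin M, was even across libraries at 215, 155.9, 166, 137.6 and 139 normalised reads against at most 48.1 (log2 2.98 ± 0.36, adjusted p = 5.94e-09). Tnfsf9, the ligand of the costimulatory receptor 4-1BB, reached 32.6, 101, 59.4, 258 and 343, with libraries 4 and 5 highest (log2 3.67 ± 0.46, adjusted p = 8.62e-09). Il6, Il18 and Il27 did not pass the test.

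Of 17 chemokine genes 13 rose and 1 fell, Ccl6 (median log2 3.16). Ccl3, which attracts myeloid cells and lymphocytes, stood at 1496, 12688, 4259, 11826 and 12531 normalised reads in libraries 1 to 5, against a lowest, median and highest of 159.6, 235 and 636 without LPS. Libraries 2, 4 and 5 were near 12000 and library 1 lowest, yet no library at 48 h overlapped the untreated ones (log2 4.12 ± 0.53, adjusted p = 1.94e-08, and 4.88 without library 1). Ccl12, a ligand of CCR2, rose more evenly to 789 to 2780 normalised reads from a median of 149.7 (log2 3.16 ± 0.38, adjusted p = 4.53e-09). Cxcl16, a membrane-bound chemokine, rose to 337 to 1075 from 113.9 (log2 2.32 ± 0.24, adjusted p = 8.67e-11).

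Among 19 genes of the NF-kB pathway and its feedback 12 rose and 0 fell (median log2 1.29). The risers included the inhibitors Nfkbia, Nfkbib and Tnfaip3 and the subunits Nfkb2 and Relb, while the subunits Nfkb1, Rela and Rel did not pass. Ikbke, a kinase upstream of interferon regulatory factors, stood at 33.6, 254, 184, 237 and 198 normalised reads in libraries 1 to 5, against a lowest, median and highest of 0, 1.61 and 3.43 without LPS. The groups did not overlap, with library 1 lowest (log2 5.69 ± 0.56, adjusted p = 3.01e-11). Nfkbiz, a nuclear cofactor of NF-kB, reached 153, 393, 324, 327 and 375 normalised reads against at most 43.2 (log2 3.51 ± 0.42, adjusted p = 2.91e-09). Bcl3, another nuclear cofactor and also a STAT3 target, reached 119, 209.8, 150.0, 409 and 510.2 against at most 23.6 (log2 3.69 ± 0.38, adjusted p = 7.57e-11).

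The list of the IL-10 receptor, its kinases and STAT3-driven genes held 17 tested genes, of which 10 rose and 1 fell, Il10rb, the second receptor chain. The fall of Il10rb was not called by edgeR, nor without library 1, library 3 or untreated library 5 or 6. The median was 1.59 on the log2 scale. Pim1, a kinase gene that STAT3 and other STATs induce, stood at 94.7, 181, 137.97, 260.0 and 353 normalised reads in libraries 1 to 5, against a lowest, median and highest of 2.11, 11.1 and 24.1 without LPS (log2 4.52 ± 0.46, adjusted p = 5.54e-11). Il4ra, a chain of the interleukin 4 receptor, was very even at 663, 667, 743, 599 and 744 against at most 233 (log2 1.70 ± 0.18, adjusted p = 3.34e-10). Dusp1, a phosphatase that switches off p38 and JNK, rose to 1124 to 2419 from a median of 220.0 (log2 2.67 ± 0.47, adjusted p = 1.07e-05). Other cytokines that signal through STAT3 induce several of these genes too.

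Of 26 genes of the type I interferon response 23 rose and 0 fell, with a median of 2.66 on the log2 scale. Zbp1, a sensor of nucleic acids, stood at 174, 105, 253, 243 and 233 normalised reads in libraries 1 to 5, against a lowest, median and highest of 0.761, 7.69 and 25.2 without LPS (log2 4.49 ± 0.47, adjusted p = 1.18e-10). Ifi204, a DNA sensor of the interferon-induced p200 family, reached 364, 314, 358, 234 and 286 normalised reads against at most 85.8 (log2 3.40 ± 0.35, adjusted p = 7.28e-11). Stat2, part of the factor that binds interferon response elements, stood at 288, 271, 275, 449 and 510.2 normalised reads in libraries 1 to 5, against a lowest, median and highest of 45.9, 60.7 and 78.9 without LPS, without overlap and with libraries 4 and 5 highest (log2 2.32 ± 0.26, adjusted p = 4.75e-10). Rtp4, an interferon-induced receptor transporter, rose to 295 to 509 from 35.1 (log2 2.88 ± 0.34, adjusted p = 3.37e-09).

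Of 10 interferon-inducible GTPases, which attack the vacuoles of intracellular microbes, 9 rose and 0 fell (median log2 1.85). Gbp2 stood at 122.2, 306, 251, 323 and 355 normalised reads in libraries 1 to 5, against a lowest, median and highest of 6.68, 12.2 and 27.5 without LPS, without overlap and with library 1 lowest (log2 4.02 ± 0.49, adjusted p = 6.08e-09). Gbp5 stood at 19.4, 60.8, 52.1, 171 and 229 normalised reads in libraries 1 to 5, against a lowest, median and highest of 5.13, 9.14 and 12.6 without LPS, also without overlap, and libraries 4 and 5 held the most (log2 2.35 ± 0.44, adjusted p = 3.36e-05). Members of this family are close in sequence, and how shared reads were counted among them is not stated in the labels.

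The promoters of these GTPases that could be searched share a sequence. Its letters were not used to choose the genes, but the list was made of genes known to be induced by interferon. The interferon-stimulated response element was searched as GAAA, 2 bases of any kind and a second GAAA, on both strands, in the 250 bases before the start of each gene in RefSeq promoters of the build GRCm38.p6. Of the 10 GTPase genes tested 7 had an entry, and all 7 held a match, Irgm2, which did not pass the test, among them, against 978 of 32851 promoters (2.98%). A listed gene counted if any of its promoters matched, while that share is per promoter, with 32851 promoters for 27025 gene symbols. Of 26 type I interferon genes 18 had an entry and 8 held a match. An NF-kB site was searched as GGG, 2 bases of any kind and TTTCC, on both strands, and 464 promoters (1.41%) held it. Of the listed NF-kB genes 4 of 15 with an entry held one, of the chemokines 4 of 11, and of the cytokines 3 of 9. No match to one motif overlapped a match to the other in the promoters printed here, and a match is a description of letters, not of binding. Gbp2, Gbp5 and Irgm1 are shown for the GTPases, Stat2 for the interferon list and Marco as the largest rise with an NF-kB match. Each run gives the 250 bases before the start, 5′ to 3′ on the strand of the gene, and capitals mark matches to either motif. Gbp2 is at chr3:142620413-142620662 on the forward strand, Gbp5 at chr3:142496684-142496933 on the forward strand, Irgm1 at chr11:48871421-48871670 on the reverse strand, Stat2 at chr10:128270248-128270497 on the forward strand and Marco at chr1:120505025-120505274 on the reverse strand.
Gbp2: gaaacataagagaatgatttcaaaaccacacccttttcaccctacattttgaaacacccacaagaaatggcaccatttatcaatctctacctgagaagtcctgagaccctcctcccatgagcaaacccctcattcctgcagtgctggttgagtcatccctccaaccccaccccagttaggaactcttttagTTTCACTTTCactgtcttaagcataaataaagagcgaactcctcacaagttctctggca
Gbp5: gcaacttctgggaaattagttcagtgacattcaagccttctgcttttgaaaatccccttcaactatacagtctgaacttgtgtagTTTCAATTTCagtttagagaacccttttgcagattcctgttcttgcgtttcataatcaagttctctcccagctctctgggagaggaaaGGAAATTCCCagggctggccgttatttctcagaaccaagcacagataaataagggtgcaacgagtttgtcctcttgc
Irgm1: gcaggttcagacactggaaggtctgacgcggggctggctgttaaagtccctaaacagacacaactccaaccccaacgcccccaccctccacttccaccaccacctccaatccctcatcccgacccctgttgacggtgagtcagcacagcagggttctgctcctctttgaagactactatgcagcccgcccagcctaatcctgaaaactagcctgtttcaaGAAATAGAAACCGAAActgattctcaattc
Stat2: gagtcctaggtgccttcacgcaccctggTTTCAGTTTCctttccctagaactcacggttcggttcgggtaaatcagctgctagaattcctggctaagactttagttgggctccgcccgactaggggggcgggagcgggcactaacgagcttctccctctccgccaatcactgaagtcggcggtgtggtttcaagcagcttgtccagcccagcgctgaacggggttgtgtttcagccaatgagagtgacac
Marco: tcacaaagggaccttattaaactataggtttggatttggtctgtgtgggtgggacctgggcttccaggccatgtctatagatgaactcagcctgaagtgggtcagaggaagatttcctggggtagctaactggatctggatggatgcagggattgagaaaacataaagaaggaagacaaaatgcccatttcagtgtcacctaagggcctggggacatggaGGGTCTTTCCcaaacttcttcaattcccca

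The match in Gbp2 begins 59 bases before the start. Gbp5 holds 1 match to each motif, and the interferon element lies farther from the start, at 165 bases. In Irgm1 2 matches overlap, and the farther one begins 30 bases before the start. Stat2 holds its match 222 bases before the start. The NF-kB match of Marco begins 30 bases before the start. Acod1, Tnf and Il12b held no match to either motif, which says only that these letters are not in this window.

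Among 19 costimulation and activation receptors 14 rose and 1 fell, Tlr4, the LPS receptor itself (median log2 2.97). Tlr2, the receptor of bacterial lipoproteins, stood at 543, 1331, 1238, 2389 and 2983 normalised reads in libraries 1 to 5, against a lowest, median and highest of 133, 173 and 211 without LPS, with libraries 4 and 5 highest and no overlap (log2 2.46 ± 0.28, adjusted p = 1.24e-09). Of 8 genes of the acute phase and of iron storage 6 rose and 0 fell. Fth1, the ferritin heavy chain, rose to 7933 to 14394 from a median of 2409 (log2 2.13 ± 0.23, adjusted p = 4.8e-10). Lrg1, a secreted glycoprotein of the acute phase, stood at 175, 29.9, 74.6, 41.7 and 45.5 normalised reads in libraries 1 to 5, against a lowest, median and highest of 0.761, 2.62 and 8.02 without LPS, here with library 1 highest (log2 4.59 ± 0.58, adjusted p = 1.29e-08).

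Antigen presentation split by class. Of 18 genes of MHC class I and the immunoproteasome 9 rose and 1 fell, Psmb9. Tap1, which carries peptides into the endoplasmic reticulum, stood at 427, 365, 428, 619 and 650.4 normalised reads in libraries 1 to 5, against a lowest, median and highest of 99.2, 111.9 and 136 without LPS (log2 1.78 ± 0.27, adjusted p = 7.73e-07), and the proteasome activator Psme2 rose to 489 to 741 from 211 (log2 1.26 ± 0.17, adjusted p = 9.33e-08). Among the MHC class II genes 6 of 8 fell and 1 rose, Cd74, the invariant chain. The rise of Cd74 was not called by DESeq2, nor without any one of libraries 1 to 3 or of untreated libraries 1 to 6, and its groups overlapped. H2-Aa stood at 70.3, 35.8, 36.9, 39.9 and 28 normalised reads in libraries 1 to 5, against a lowest, median and highest of 75.2, 198 and 473 without LPS, and all 5 lay below the lowest untreated library (log2 -2.06 ± 0.42, adjusted p = 9.29e-05). H2-Eb1 stood at 38.7, 14.9, 32.9, 13.3 and 15.9 normalised reads in libraries 1 to 5, against a lowest, median and highest of 43.6, 137 and 327 without LPS (log2 -2.05 ± 0.49, adjusted p = 0.000764), also below. H2-DMa, which loads peptides, fell by less (log2 -0.89 ± 0.21, adjusted p = 0.000718), and H2-Oa, which restrains loading, fell evenly to 58.2 to 87.9 from 166 (log2 -1.18 ± 0.20, adjusted p = 3.99e-06). The untreated values of H2-Aa spanned a wide range, unlike those of H2-Oa.

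Of 12 complement genes 4 rose (C3, C3ar1, C4b and C5ar1) and 1 fell. C5ar1, the receptor of the fragment C5a, stood at 205, 199, 204, 139 and 167 normalised reads in libraries 1 to 5, against a lowest, median and highest of 21.1, 29.4 and 43.2 without LPS, without overlap (log2 2.75 ± 0.33, adjusted p = 4.92e-09). C4b, a component of the classical pathway, reached 145.7, 42.7, 60.2, 66.6 and 75.8 normalised reads with library 1 highest, against at most 37.8 (log2 2.29 ± 0.46, adjusted p = 7.42e-05). Without libraries 1 and 3 the fold change rests on library 2 alone, and this rise was log2 1.54. C3ar1 reached 334, 985, 704, 691 and 685 with library 1 lowest, against at most 167 (log2 1.78 ± 0.45, adjusted p = 0.00155).

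Of 18 genes that mark microglia near plaques and degenerating neurons 8 rose and 5 fell, with a median of 0.04. Spp1, which encodes osteopontin, stood at 201, 53.9, 125, 55 and 20.5 normalised reads in libraries 1 to 5, against a lowest, median and highest of 0, 5.77 and 18.3 without LPS, without overlap (log2 4.82 ± 0.54, adjusted p = 6.03e-10). Cd63, a tetraspanin of late endosomes, rose to 944 to 1718 from 413 (log2 1.66 ± 0.17, adjusted p = 1.05e-10). Trem2, the lipid receptor needed for that state in models of neurodegeneration, fell instead, to 1239, 532, 828, 1103 and 1386 normalised reads from a lowest, median and highest of 2890, 3595 and 3816 (log2 -1.87 ± 0.20, adjusted p = 1.6e-10). 

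Lysosomal genes mostly fell where they changed. Of 16 cathepsin and lysosome genes 7 fell and 2 rose, Ctsc and Ctsl. Ctsd, the aspartic protease cathepsin D, stood at 7731, 4236, 4834, 5870 and 5712 normalised reads in libraries 1 to 5, against a lowest, median and highest of 14154, 15394 and 19655 without LPS, without overlap (log2 -1.43 ± 0.21, adjusted p = 3.75e-07). Hexa, a subunit of beta-hexosaminidase, fell to 374 to 628 from 1633 (log2 -1.88 ± 0.23, adjusted p = 4.76e-09), whereas the cysteine protease gene Ctsl rose to 2492 to 4797 from 1395 (log2 1.46 ± 0.17, adjusted p = 1.45e-09).

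Of 10 genes of immune metabolism and lipid mediators 6 rose and 1 fell, Ptgs1, which encodes the constitutive cyclooxygenase (log2 -0.91 ± 0.19, adjusted p = 0.000186). Slc7a11, the cystine transporter, stood at 11.2, 123, 108.3, 76.3 and 91.7 normalised reads in libraries 1 to 5, against a lowest, median and highest of 0.717, 1.92 and 4.01 without LPS, without overlap (log2 4.10 ± 0.65, adjusted p = 1.51e-06). Of 19 glycolysis and hypoxia genes 6 rose and 2 fell, Hk3 and Egln3. Pfkfb3, which makes the activator of phosphofructokinase, stood at 570.4, 1143, 945, 813 and 1138 normalised reads in libraries 1 to 5, against a lowest, median and highest of 127, 157 and 197 without LPS (log2 2.31 ± 0.37, adjusted p = 1.93e-06), while Ldha, lactate dehydrogenase A, stood at 327, 259.9, 405, 159.7 and 181 normalised reads in libraries 1 to 5, against a lowest, median and highest of 136, 146.3 and 180.5 without LPS, with library 4 within the untreated range and library 5 at its upper edge (log2 1.17 ± 0.15, adjusted p = 1.08e-08). Of 20 cytosolic ribosomal proteins 17 rose and 0 fell by small steps (median log2 0.81). Of 18 oxidative phosphorylation genes 9 rose and 1 fell, Sdha. Of 14 genes of the integrated stress and unfolded protein response 1 rose, Atf4 (log2 0.95 ± 0.25, adjusted p = 0.00249), and 2 fell, Dnajb9 and the chaperone Hsp90b1 (log2 -0.67 ± 0.21, adjusted p = 0.011). Over all genes tested 17.7% rose and 17.9% fell. The fall of Hsp90b1 did not pass without library 2 (log2 -0.49, adjusted p = 0.121).

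Of 17 inflammasome and cell death genes 10 rose and 4 fell, among the risers Nlrp3, Ripk3 and Mlkl. Among immediate early genes 5 of 17 rose and 3 fell, where 17.7% of all genes tested rose and 17.9% fell. Ier3, a stress-induced survival gene, stood at 1404, 989, 1385, 1216 and 1282 normalised reads in libraries 1 to 5, against a lowest, median and highest of 101.7, 137 and 263 without LPS (log2 3.002 ± 0.35, adjusted p = 1.75e-09). Of 7 interleukin 1 and TNF receptors and decoys 3 rose, Il1r2, Il18bp and Il18rap, and 0 fell.

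S100a8 and S100a9, calcium-binding proteins abundant in neutrophils and monocytes, were carried by libraries 1 and 3. S100a8 stood at 228, 17.1, 434, 31.9 and 106.1 normalised reads in libraries 1 to 5, against a lowest, median and highest of 0, 85.8 and 129.6 without LPS (log2 3.71 ± 1.25, adjusted p = 0.0163). S100a9 stood at 374, 7.47, 553, 16 and 108.4 normalised reads in libraries 1 to 5, against a lowest, median and highest of 0, 112.8 and 195 without LPS (log2 3.33 ± 1.25, adjusted p = 0.0329). In both genes the groups overlapped, and neither rise was called without library 1 (adjusted p = 0.0728 and 0.176), without library 3 (adjusted p = 0.133 and 0.244) or without untreated library 4 or 6. Both calls were also lost with DESeq2 (adjusted p = 0.0799 and 0.0668) and with no experiment term (log2 1.30 and 0.69, adjusted p = 0.29 and 0.603), and that of S100a9 with a pseudocount of 5 (adjusted p = 0.055). Ly6c2, a monocyte surface antigen, stood at 14.3, 0.534, 17.6, 7.99 and 19 normalised reads in libraries 1 to 5, against a lowest, median and highest of 0, 0 and 11.8 without LPS (log2 2.93 ± 0.83, adjusted p = 0.00419, and adjusted p = 0.0576 without library 3). Ms4a4c stood at 37.7, 12.8, 64.2, 31.1 and 35.6 normalised reads in libraries 1 to 5, against a lowest, median and highest of 1.31, 3.81 and 12 without LPS (log2 3.02 ± 0.52, adjusted p = 7.62e-06). Without libraries 1 and 3 the fold changes rest on library 2 alone, and Ly6c2 gave log2 0.63 and Ms4a4c log2 1.78. Fn1, which encodes fibronectin, reached 105.9, 18.1, 49.7, 16 and 6.82 against at most 2.62 (log2 4.33 ± 0.65, adjusted p = 6.28e-07). Mrc1, the mannose receptor of border macrophages, stood at 4.07, 0.534, 1.6, 0 and 0 normalised reads in libraries 1 to 5, against a lowest, median and highest of 0.855, 8.02 and 11.8 without LPS (log2 -1.92 ± 0.59, adjusted p = 0.00791, and adjusted p = 0.0827 without library 2). The neutrophil and monocyte sums given above moved with these genes, and their part was not tested.

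Of 24 homeostatic genes 20 fell and 0 rose, with a median of -1.72. In 23 all 5 libraries lay below all 9 untreated ones, as in 13.1% of all genes tested. Slc2a5, a fructose transporter, stood at 32.6, 8.54, 24.9, 21.3 and 14.4 normalised reads in libraries 1 to 5, against a lowest, median and highest of 486, 647 and 736 without LPS, the largest fall of all named genes (log2 -5.09 ± 0.40, adjusted p = 5.2e-14). Gpr34, a receptor for lysophosphatidylserine, stood at 76.4, 16, 53.7, 42.6 and 22 normalised reads in libraries 1 to 5, against a lowest, median and highest of 551, 957 and 1388 without LPS (log2 -5.03 ± 0.65, adjusted p = 2.45e-08). P2ry12, the ADP receptor that steers microglial processes, stood at 619, 274, 455, 390.5 and 293 normalised reads in libraries 1 to 5, against a lowest, median and highest of 3215, 4039 and 4653 without LPS (log2 -3.31 ± 0.26, adjusted p = 3.17e-14). In all 3 the groups were far apart, and library 2 was the lowest at 48 h. Adgrg1, an adhesion receptor, was even at 145, 86.5, 89.8, 111.8 and 95.5 against at least 907 without LPS (log2 -3.52 ± 0.29, adjusted p = 1.4e-13).

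Tmem119, a membrane protein used to mark microglia, fell less than P2ry12, to 1052, 638, 882, 1021 and 832 from a lowest, median and highest of 3021, 3677 and 5940 (log2 -2.12 ± 0.27, adjusted p = 1.26e-08). Siglech, a sialic acid receptor, stood at 672, 486, 708, 717 and 789.9 against 1924, 2108 and 2432 in the same terms (log2 -1.94 ± 0.23, adjusted p = 2.3e-09). Cx3cr1, the fractalkine receptor whose locus holds CreER, fell as well (log2 -1.28 ± 0.30, adjusted p = 0.000626). Cst3, Sparc and P2ry6 were among the members of the list that did not pass.

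Further falls among the 12 largest were those of the amino acid transporter Slc36a2 (log2 -4.93 ± 0.44, adjusted p = 2.46e-12), the lysosomal transporter Slc46a3 (log2 -4.65 ± 0.37, adjusted p = 6.79e-14), the BAFF and APRIL receptor Tnfrsf17 (log2 -4.58 ± 0.54, adjusted p = 2.7e-09) and the crystallin Crybb1 (log2 -4.55 ± 0.40, adjusted p = 1.43e-12). Slc36a2 was at 0 in libraries 1 and 2 and at most 1.77 in the others, against at least 28.1 without LPS. Crybb1 stood at 135, 27.2, 73.8, 40.8 and 30.3 normalised reads in libraries 1 to 5, against a lowest, median and highest of 1302, 1584 and 2509 without LPS. Upk1b, Lst1, Hacd4, Tspan18, Adamts16 and Tppp completed the set, with log2 values of -4.45, -4.35, -4.24, -4.19, -4.13 and -4.09. None of these 12 genes had overlapping groups, as the rule that picked them required.

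Of 13 TGF-beta genes 7 fell and 1 rose, the corepressor Tgif1. Tgfbr1, the type I receptor, stood at 898, 557, 537, 789.9 and 801 normalised reads in libraries 1 to 5, against a lowest, median and highest of 1478, 2418 and 2770 without LPS, without overlap (log2 -1.78 ± 0.17, adjusted p = 1.04e-11). Smad7, the feedback inhibitor of the pathway, fell to 41.1 to 90.5 from 147.7 (log2 -1.22 ± 0.18, adjusted p = 3.69e-07). Itgb5, an integrin chain, stood at 735, 185, 344, 241 and 305 normalised reads in libraries 1 to 5, against a lowest, median and highest of 923, 1377 and 1883 without LPS, with library 1 well above the other four (log2 -1.67 ± 0.28, adjusted p = 4.54e-06). Of 20 transcription factors 8 fell, among them Sall1, Mef2c and Cebpa, and 4 rose, Cebpb, Cebpd, Batf and Id2. Over all genes tested 17.9% fell and 17.7% rose, so the number of risers is near that share. Id2, an inhibitor of helix-loop-helix factors, stood at 1297, 2035, 1587, 3550 and 4539 normalised reads in libraries 1 to 5, against a lowest, median and highest of 119, 190.3 and 578 without LPS (log2 3.37 ± 0.34, adjusted p = 4.18e-11). Cebpb, a driver of inflammatory macrophage genes, reached 645, 319, 544, 1114 and 1550 against at most 339.8, and library 2 fell within the untreated range (log2 2.17 ± 0.29, adjusted p = 3.18e-08).

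**Figure D3:**
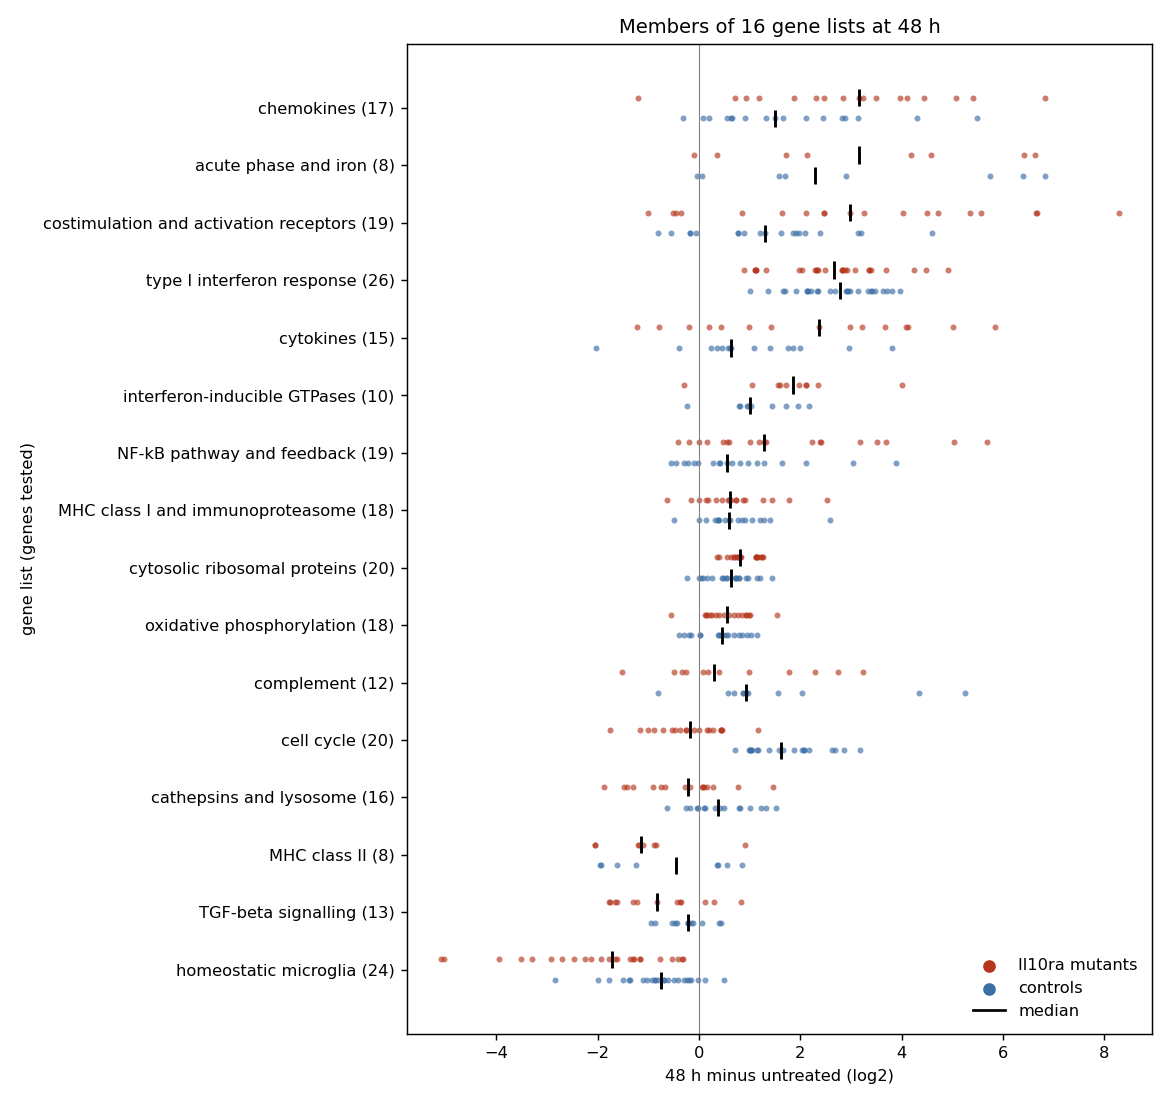
Each point is a gene of the list named on the vertical axis, placed at its log2 change between 48 h and no LPS, in red for Il10ra mutants and in blue for controls, and black ticks are medians. The medians of the cell cycle list lie at -0.18 in mutants and 1.62 in controls, and those of the type I interferon list at 2.66 and 2.79.

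The next question was which of these changes differed from the response of controls at the same time. Mutants also carry CreER in the Cx3cr1 locus, which these controls lack. Untreated Cx3cr1 averaged 2618 normalised reads in mutants and 5510 in controls. The part of CreER in the differences below was not tested. In controls 1454 genes were higher and 1028 lower at 48 h (12.6% and 8.9%). The difference between the 2 responses, tested itself as an interaction, was called for 1893 genes (16.4%). In 779 of them (6.74%) the mutant response was the higher one and in 1114 (9.64%) the lower one. Without mutant library 2 at 48 h these counts were 421 and 713. Counts of differences in the gene lists below are to be set against the 6.74% and 9.64% of all genes.

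The largest positive differences belonged to genes that rose in mutants and changed less, or fell, in controls. Nbl1, a secreted BMP antagonist, stood at 105.9, 157, 103, 145 and 218 normalised reads in libraries 1 to 5, against a lowest, median and highest of 1.61, 7.69 and 9.9 without LPS. In controls it went the other way, from 13.8 ± 5.2 to 1.29 ± 2.02 (SD, n = 6 each), and the responses differed by log2 6.95 ± 0.92, adjusted p = 7.72e-07. Acod1 averaged only 13.7 ± 8.24 in controls at 48 h, and its responses differed by log2 5.33 ± 1.04, adjusted p = 0.000256. Ch25h averaged 32.8 ± 20.8 there and differed by log2 4.92 ± 0.99, adjusted p = 0.000377. Library 1, the lowest mutant library for both, still lay above the highest control at 48 h for each.

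Sdc4, a heparan sulfate proteoglycan, stood at 94.7, 269, 171, 86.1 and 171 normalised reads in libraries 1 to 5, against a lowest, median and highest of 0, 5.13 and 13.7 without LPS, and controls at 48 h averaged 10.3 ± 5.48 (difference log2 4.62 ± 0.68, adjusted p = 4.59e-06). Edn1, which encodes endothelin 1, spread widely, at 17.3, 883, 184, 450.0 and 583 normalised reads against at most 18.3 without LPS. Library 1 was within the untreated range here, and the difference from controls (log2 4.61 ± 1.11, adjusted p = 0.00248) was not called without library 2 (log2 3.31, adjusted p = 0.0563). The call of Ms4a8a was lost with edgeR (adjusted p = 0.0894). Without mutant libraries 1 and 3, which leaves library 2 alone, the difference of Zbtb16 was log2 4.00. Ms4a8a, Zfp811 and the zinc finger factor Zbtb16 completed the 8 largest positive differences (log2 4.61 ± 0.70, adjusted p = 7e-06, log2 4.60 ± 0.91, adjusted p = 0.000312 and log2 4.55 ± 1.08, adjusted p = 0.00211). Their untreated medians were 0, 0 and 1.43 normalised reads.

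Among the 8 largest negative differences, 3 genes rose in controls but not in mutants, and 1 rose in both. Tk1, thymidine kinase of the S phase, stood at 0, 1.07, 1.6, 1.77 and 4.55 normalised reads in libraries 1 to 5, against a lowest, median and highest of 3.17, 7.26 and 14.9 without LPS, with the groups overlapping in library 5 (log2 -1.76 ± 0.53, adjusted p = 0.00749). Controls at 48 h averaged 28.6 ± 13.7, and the responses differed by log2 -4.39 ± 0.63, adjusted p = 2.81e-06. Tcf19, a growth-regulated factor, stood at 1.02, 1.07, 2.41, 6.21 and 3.03 in mutants and averaged 23.7 ± 10.9 in controls at 48 h, against 2.71 ± 3.18 in untreated controls (difference log2 -4.17 ± 0.78, adjusted p = 0.000146). Cbr2, a carbonyl reductase also found in border macrophages, was at most 2.66 in mutants and averaged 49.9 ± 14.8 in controls at 48 h (difference log2 -4.46 ± 0.89, adjusted p = 0.000374). Cyp4f18, a fatty acid hydroxylase, rose in both, by 1.81 in mutants and 5.65 in controls on the log2 scale (difference log2 -3.84 ± 0.84, adjusted p = 0.00102). Its rise in mutants, at log2 1.81 ± 0.72, adjusted p = 0.0435, was not called without library 1 (adjusted p = 0.21) or library 3 (adjusted p = 0.0873). The call was also lost without any one of untreated libraries 1, 3, 4 and 5 or with a pseudocount of 0.5 (adjusted p = 0.0632). With libraries 1 and 3 left out together, which leaves library 2 alone, the rise was log2 0.95.

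The other four fell in mutants, while their change in controls was not called. Olfml3, a secreted microglial glycoprotein, stood at 6.11, 8.54, 10.4, 13.3 and 10.6 normalised reads in libraries 1 to 5, against a lowest, median and highest of 108.7, 144.2 and 168 without LPS, while controls averaged 131.96 ± 33.2 at 48 h and 145 ± 22.1 without LPS (difference log2 -3.80 ± 0.49, adjusted p = 4.2e-07). Fam167b and Lgi4 gave differences of log2 -3.61 ± 0.45, adjusted p = 2.09e-07 and log2 -4.18 ± 0.56, adjusted p = 8.55e-07. Ly6g6e was listed at 0 in 4 of the 5 libraries at 48 h, against at least 6.68 without LPS and a mean of 28.2 ± 6.18 in controls at 48 h (difference log2 -3.89 ± 0.63, adjusted p = 1.89e-05).

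Of 20 cell cycle genes 13 had a lower response in mutants and 0 a higher one, with a median difference of -1.92 where the median of all genes was -0.00499. In controls 18 of the 20 rose, while in mutants 1 rose, Pcna, and 1 fell, Tk1, whose fall was not called without library 1 (adjusted p = 0.075). Mcm7, a subunit of the replicative helicase, stood at 29.5, 18.1, 25.7, 32.8 and 15.2 normalised reads in libraries 1 to 5, against a lowest, median and highest of 33.9, 48.5 and 54.5 without LPS, and controls at 48 h averaged 95 ± 32.1 (difference log2 -2.04 ± 0.43, adjusted p = 0.00066). Its groups did not overlap, yet its fall in mutants just missed the call (log2 -0.89 ± 0.37, adjusted p = 0.053). Some alternatives called this fall, among them edgeR, DESeq2 and the third LPS experiment alone (adjusted p = 0.0377, 0.03 and 0.0161), and others did not. Mki67, a marker of cycling cells, was at most 3.55 in mutants at 48 h and averaged 12.8 ± 11.8 in controls, both low (difference log2 -3.25 ± 0.79, adjusted p = 0.00277). Pcna, the sliding clamp of replication and repair, stood at 89.6, 132.4, 129, 66.6 and 76.6 normalised reads in libraries 1 to 5, against a lowest, median and highest of 44.2, 57.3 and 95.6 without LPS, and its difference from controls was not called (log2 0.45 ± 0.24, adjusted p = 0.196).

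Of 24 homeostatic genes 16 had a lower response in mutants than in controls and 0 a higher one, with a median difference of -0.99. One of them is Tmem119, for which controls at 48 h averaged 3142 ± 406 normalised reads and 3971 ± 432 without LPS, a change that was not called (difference log2 -1.90 ± 0.32, adjusted p = 2.9e-05). Siglech fell in both genotypes, and its difference was not called (log2 -0.16 ± 0.27, adjusted p = 0.739). Of 15 cytokines 7 had a higher response in mutants and 2 a lower one, Csf1 and Ebi3. Of 19 NF-kB genes 8 were higher and 0 lower, and of 19 costimulation and activation receptors 9 and 0. Of 17 chemokines 5 were higher and 1 lower, Ccl6.

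Interferon genes gave almost no call of a difference. Of the 26 type I interferon genes 0 had a higher response in mutants and 1 a lower one, Bst2, and the median difference was -0.06, with all 26 higher in controls. For Stat2 the difference was log2 0.41 ± 0.30, adjusted p = 0.382, for Zbp1 log2 0.52 ± 0.55, adjusted p = 0.573 and for Ifi204 log2 0.26 ± 0.41, adjusted p = 0.72. Of the 10 GTPases 1, Gbp2, differed (log2 1.84 ± 0.58, adjusted p = 0.0215). Acute phase genes gave no call among 8: Saa3 averaged 2956 ± 1239 in controls at 48 h and 3656 ± 1308 in mutants (difference log2 -0.20 ± 0.81, adjusted p = 0.902). A missed threshold does not show that the responses were alike, and the standard errors give the room left.

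Of 12 complement genes 6 had a lower response and 0 a higher one (median difference -0.82), and C4b averaged 313 ± 110.2 in controls at 48 h against 78.2 ± 39.6 in mutants (difference log2 -2.96 ± 0.54, adjusted p = 9.95e-05). Of 16 cathepsin and lysosome genes 10 were lower and 0 higher. Ctsd averaged 11492 ± 2050 in controls at 48 h and 5676 ± 1327 in mutants (difference log2 -1.18 ± 0.25, adjusted p = 0.000664), while for Ctsl the difference was log2 -0.05 ± 0.20, adjusted p = 0.899. Of 18 genes of plaque-associated microglia 8 were lower and 2 higher, Spp1 and Lgals3, and Trem2 was among the lower ones (log2 -1.43 ± 0.23, adjusted p = 1.89e-05). Of 13 TGF-beta genes 5 were lower and 1 higher, Tgif1.

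**Figure D4:**
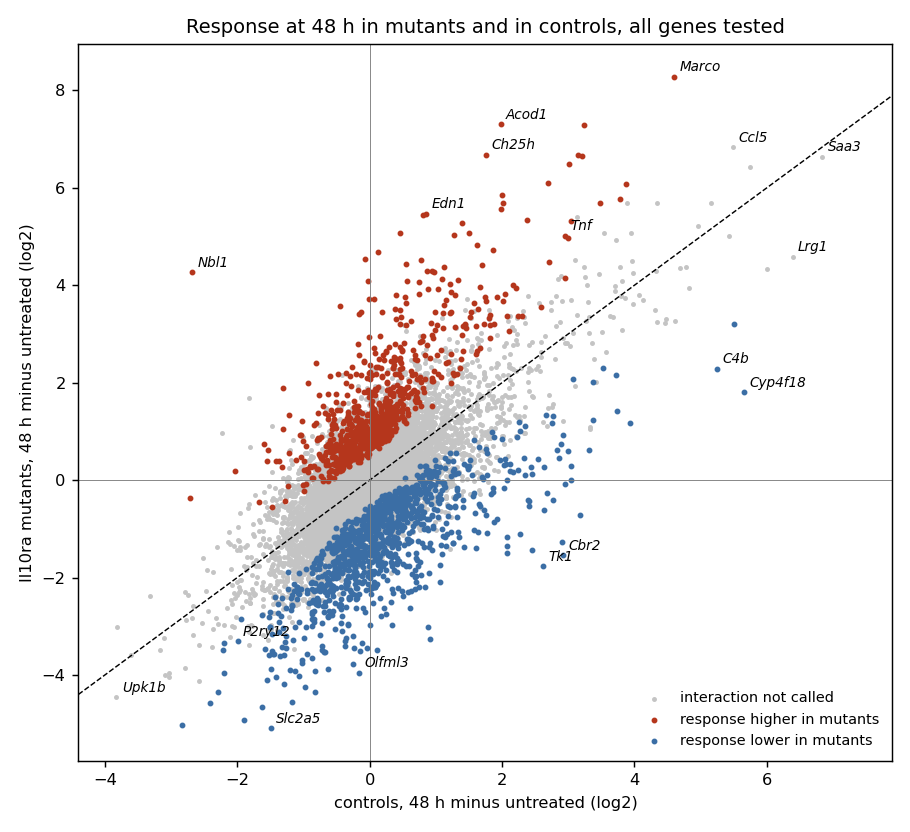
Each point is 1 of 11555 genes, with the log2 change of controls between 48 h and no LPS on the horizontal axis and that of Il10ra mutants on the vertical axis, and the dashed line marks equal changes. Red and blue points are the 779 genes with a higher and the 1114 with a lower response in mutants by the interaction test. Nbl1 lies at -2.68 and 4.27, and Saa3 close to the line at 6.84 and 6.64.

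Libraries 4 and 5 allowed a comparison whose fold changes rest on other libraries than those of the first. They were set against untreated IL10Rafl/fl:TNFfl/fl mice without Cre, 3 of them from the same experiment, in the table of double mutants. Genotype and LPS differ together in this comparison. It called 2423 genes higher and 2235 lower (20.5% and 18.9% of 11800, and 39.5% in all). Without library 5 these counts were 1488 and 1419. Of the 2006 genes higher in the first comparison and tested in both, 1532 (76.4%) were higher here and 2 lower, and these are 64.1% of the 2390 higher here. Of the 2032 lower ones 1527 (75.2%) were lower here and 3 higher, which is 69.3% of the 2205 lower here. Across the 11189 genes tested in both, the log2 changes had a Pearson r of 0.865 and a Spearman rho of 0.813, as a description across genes, which are not independent replicates.

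Marco changed by log2 7.96 ± 0.75, adjusted p = 4.16e-11, Acod1 by log2 8.002 ± 0.71, adjusted p = 8.96e-12 and Ccl3 by log2 5.66 ± 0.45, adjusted p = 5.23e-13. Il12b and Tnf reached log2 7.96 ± 0.72, adjusted p = 1.87e-11 and log2 6.56 ± 0.58, adjusted p = 9.71e-12, against 5.85 and 5.02 in the first comparison. Slc2a5 and P2ry12 were lower here too (log2 -5.05 ± 0.27, adjusted p = 1.64e-17 and log2 -3.67 ± 0.24, adjusted p = 3.7e-15). Marco, Acod1 and Slc2a5 were picked by a rule that already required the LPS libraries of this comparison to lie beyond every untreated mutant. Their direction here is therefore no independent repeat. Of 24 homeostatic genes 22 fell here, and of 26 type I interferon genes all rose.

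Several genes were called in the first comparison but not here. H2-Aa and H2-Eb1, which fell in the first comparison, gave log2 0.25 ± 0.57, adjusted p = 0.76 and log2 0.15 ± 0.68, adjusted p = 0.889, and 3 of the 8 genes of the class II list fell and 1 rose. The LPS libraries of this comparison still lay below every untreated mutant for both genes. The untreated group here has another genotype, and untreated H2-Aa averaged 205 in mutants and 94.4 in IL10Rafl/fl controls. The part of the untreated group in this was not tested. S100a8 and S100a9 gave log2 0.49 ± 1.81, adjusted p = 0.86 and log2 -0.45 ± 1.91, adjusted p = 0.879, against 3.71 and 3.33 in the first comparison, where libraries 1 and 3 carried the reads. Without libraries 1 and 3 the first comparison rests on library 2 alone and gave log2 0.96 for S100a8 and log2 -0.50 for S100a9. Since libraries 1 and 3 held the most reads, smaller changes without them follow from their removal. Ldha, Pcna and Tk1 were among the further genes called in the first comparison only. Here they gave log2 0.30, 0.58 and -0.34 (adjusted p = 0.197, 0.101 and 0.671). Il10ra, for which LPS gave no called change within mutants, was lower here (log2 -3.71 ± 0.37, adjusted p = 1.48e-10), where the untreated group is not mutant.

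**Figure D5:**
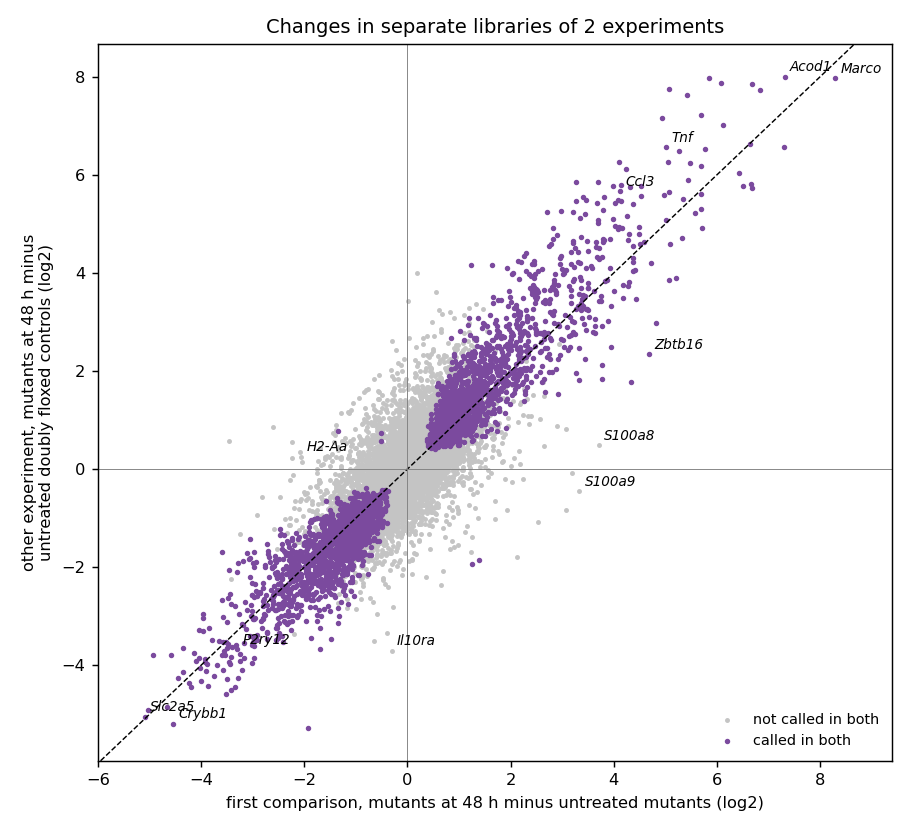
Each point is 1 of 11189 genes, with the log2 change of the first comparison on the horizontal axis and that of libraries 4 and 5 against untreated doubly floxed controls on the vertical axis. Purple points were called in both, and the dashed line marks equal changes. Il10ra lies below the line at -0.31 and -3.71, and H2-Aa above it at -2.06 and 0.25.

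Set against mutants at 24 h, mutants at 48 h gave 0 calls by limma, edgeR and DESeq2 among 11555 genes, with 811 genes at an unadjusted p under 0.05. No experiment holds both times, so the contrast is linked only through the other groups of each experiment, and without such a term 229 genes were called. Without mutant library 1 at 24 h, 82 genes were called higher and 24 lower at 48 h. The means over libraries are therefore given side by side. Tnf averaged 778 ± 434, 994 ± 451 and 1585 ± 842 normalised reads at 6, 24 and 48 h (SD, n = 7, 5 and 5). Acod1 averaged 121.7 ± 80.9, 226 ± 161 and 661 ± 413, and Marco 60.7 ± 38.6, 618 ± 609 and 1874 ± 1303. P2ry12 averaged 787 ± 342, 495 ± 100.4 and 406 ± 140.04, and Slc2a5 127 ± 69.3, 22.3 ± 5.72 and 20.3 ± 9.3. Ccl5 averaged 3071 ± 1254, 2695 ± 685 and 2941 ± 1184. The SDs at 24 and 48 h overlap for all of these genes.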

How the data were processed

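RNA of sorted mouse microglia was sequenced by MARS-seq, and the authors deposited a table of normalised reads per gene for controls and Il10ra mutants (48 libraries) and one that includes the double mutants (38 libraries). Their unit is a signal: whole reads per gene divided by 1 factor per library, mapped to mm10 per the submitters' processing notes. Aligner, annotation and counting settings: not given in the sources used here. Multiplied by its factor, every library gave whole reads in 100% of its values (tolerance 0.01 reads, wider in proportion above 20 reads), and reads were taken as recovered for 46 of 48 and 38 of 38 libraries. Gene names turned into dates by a spreadsheet (18 in each table, 0.0799% and 0.0746% of the values) and 1 blank entry were left out.

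A gene was tested if 4 or more libraries reached 5 normalised reads, which kept 11555 of 12798 and 11800 of 13390 genes. limma 3.58.1 in R 4.3.3 was fitted with trend to log2(value + 1), with a term for each group and an additive term for each experiment, over all libraries of the table. Adjusted p-values are from limma with Benjamini-Hochberg adjustment over all genes tested, and a call needs one under 0.05. Values after ± in log2 changes are standard errors. edgeR 4.0.16 (quasi-likelihood) and DESeq2 1.42.0 on the recovered reads, other pseudocounts, filters and scalings, fits within 1 experiment and fits without each library were alternatives. Leaving out mutant libraries 1 and 3 was added after seeing the data. It leaves library 2 alone to carry the fold changes, so only log2 values are given for it. On simulated counts for the comparison with untreated mutants (11291 genes, 100 of them changed at each size) limma recovered 77% of 4-fold and 12% of 2-fold changes. For the difference from the control response the shares were 50% and 3%, and for 48 h against 24 h 53% and 6%. For the comparison with doubly floxed controls they were 57% and 5%. The simulation gave all genes the same dispersion and changed far fewer genes than the 4116 called against untreated mutants. These recovered shares therefore need not hold for the comparisons themselves.

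The members and the gene lists were chosen with earlier results of these data known. Named genes are the 12 largest rises and 12 largest falls that had no overlap and reached a mean of 20 in 1 group, the 8 largest interaction terms each way, from each list the 4 members with the smallest p, and Il10ra, Cx3cr1 and Tnf. Some genes that these rules pick or that make up a short count are not reported here. Other genes that make up a short count were named after their values were seen. Of 103 genes given with values 16 overlap a protein-coding gene in the RefSeq table, P2ry12, Gpr34, Ccl3, Tk1, Stat2 and Crybb1 among them, and their reads cannot be assigned with certainty.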

Additional observations from a re-analysis of the deposited data

Results flagged for a closer look

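In 17 of 206 groups of values (8.25%) 1 library lay far from the rest of its group. The cut-off gives about 1 in 20 for normally distributed values. Normalised reads of picked genes need not be so distributed, so no excess over chance is shown. Among mutants at 48 h the outlying library was library 1 each time. It was the highest for Slc46a3 11.2, Ly6g6e 2.04, H2-Aa 70.3, H2-DMa 116.1 and Itgb5 735 normalised reads, genes that fell at 48 h, and the lowest for Nfkbiz, at 153. Among untreated mutants library 2 was the highest for Crybb1 2509, Tmem119 5940, Ctsd 19655 and Hexa 3107 normalised reads. Untreated library 9 was the highest for Edn1 18.3, Zbtb16 8.01, Ifi204 85.8 and Zbp1 25.2, untreated library 6 for Rtp4 67.5, untreated library 8 for Lrg1 8.02 and untreated library 7 for Ly6c2 11.8.

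The response at 48 h differed between mutants and controls in 1893 genes by the interaction test of limma with Benjamini-Hochberg adjustment. Among the 103 genes given with values 63 were called. The mutant minus control differences on the log2 scale that were positive, meaning a higher response in mutants, were Nbl1 6.95, Acod1 5.33, Ch25h 4.92, Sdc4 4.62, Edn1 4.61, Ms4a8a 4.61, Zfp811 4.60, Zbtb16 4.55, Slc7a11 4.12, Il1r2 4.06, Il12b 3.85 and Marco 3.68. The smaller positive ones were Msr1 3.52, Map3k6 3.49, Trem1 3.45, Gpr18 3.42, Spp1 3.19, Ccl3 2.79, Ehd1 2.21, Pfkfb3 2.21, Tnf 2.06, Tnfsf9 1.90, Nfkbiz 1.87, Gbp2 1.84, Osm 1.58, Dusp1 1.58, Id2 1.29, Psme2 0.86, Atf4 0.84 and Ldha 0.61.

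Negative differences, meaning a lower response in mutants, were led by Cbr2 -4.46, Tk1 -4.39, Lgi4 -4.18, Tcf19 -4.17, Ly6g6e -3.89, Cyp4f18 -3.84, Olfml3 -3.80, Fam167b -3.61, Slc2a5 -3.60, Lst1 -3.53, Crybb1 -3.37 and Hacd4 -3.27. Smaller in size were Mki67 -3.25, Slc36a2 -3.03, Slc46a3 -3.02, C4b -2.96, Tspan18 -2.89, Adgrg1 -2.83, Tppp -2.55, Gpr34 -2.19, Tnfrsf17 -2.17, Itgb5 -2.10, Mcm7 -2.04, Tmem119 -1.90, Trem2 -1.43, P2ry12 -1.31, Hsp90b1 -1.30, Hexa -1.25, H2-DMa -1.24, Ctsd -1.18, Tgfbr1 -0.92, Ptgs1 -0.85 and Smad7 -0.78.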

How the results depend on the processing

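The comparison with untreated mutants kept its total of calls within 1.5 times under all alternatives run, and leaving out 1 library at a time gave 27.8% to 35.8% of genes called (3214 to 4136). The difference from the control response gave 9.81% to 17.4% in the same way (1134 to 2012 genes). The lowest was without mutant library 2 at 48 h (421 higher and 713 lower). The comparison with 24 h gave 0% to 0.917%. The highest, 82 higher and 24 lower, was without mutant library 1 at 24 h. Without mutant library 1 at 48 h 1 gene was called (0.00865%), and with no experiment term 229 were (1.98%, 147 higher and 82 lower). Libraries 4 and 5 against doubly floxed controls gave 24.6% to 39.6% (2907 to 4672 genes), the lowest without library 5. The cause of these differences was not tested. On the recovered reads edgeR called 4703, 2313, 0 and 5049 genes in the same order of comparisons, and DESeq2 4633, 2432, 0 and 5016. Within the third LPS experiment alone the interaction called 2179 genes (853 higher and 1326 lower). Without mutant libraries 1 and 3 the fold changes rest on library 2 alone, and S100a9 turned from 3.33 to -0.50 on the log2 scale. For the comparison of 48 h with 24 h, a fit to the groups of the contrast alone could not be made, since no experiment holds both.

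Same-numbered libraries are not stated to share an animal or day, and the correlations of their deviations ran from -0.165 to 0.0337, so they share only a number. With the replicate block the counts were 2886, 1478, 0 and 3861 in the order above. The block ended the calls of Tk1, Cyp4f18, Hsp90b1, S100a8, S100a9, Ly6c2 and Mrc1. Of 2575 alternative values of the 103 genes, 2525 kept direction and side of the threshold, 37 lost the call, 12 gained one and 1 reversed.

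With 3 libraries at 48 h in the experiment that carries the fold changes, small changes can have been missed. Low genes such as Tk1, Mki67 and Mrc1 rest on few reads.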
